A study of Mus musculus with 8 samples.

Results

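The BCL2 family decides whether mitochondria release the proteins that start apoptosis, and 10 of its genes were followed here in macrophages exposed to bilirubin. The 10 genes were *Mcl1*, *Bcl2l1*, *Bcl2*, *Bcl2a1a*, *Bcl2a1b* and *Bcl2a1d*, whose products keep cells alive, *Bax* and *Bak1*, whose products open the outer mitochondrial membrane, and *Bid* and *Bcl2l11*, whose products carry death signals to them. They were chosen by symbol, are 10 of the 53819 gene rows in the count table, and all 10 passed the filter on low counts. *Bcl2a1a* passed it only through its bilirubin libraries. Bone marrow-derived macrophages (BMDM) were grown from 4 female Balb/CJ mice aged 8 weeks, with marrow of each mouse cultured separately in 25 ng/mL M-CSF, a macrophage growth and survival factor, for 5 days. From each mouse, 1 culture then received 2.5 µM bilirubin, the end product of heme breakdown, and 1 received its DMSO vehicle, both for 48 h, which gave 8 libraries in 4 pairs. The labels name no genetic change in either group, and the comparison asks how this dose of bilirubin changed the RNA of cells from the same animal.

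Survival proteins of the family hold BAX and BAK, and the BH3-only proteins such as BIM (from *Bcl2l11*) and BID, in check by binding them. When BH3-only proteins outweigh the survival proteins, BAX and BAK form pores, cytochrome c escapes, and caspases are activated. MCL1 is a short-lived protein, and A1 (from the *Bcl2a1* genes) and BCL-XL (from *Bcl2l1*) are known targets of NFκB signaling in immune cells.

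Libraries held 34142781 to 47071714 counts on genes, with a median of 40742225. Macrophage markers summed to 30590 to 30758 TPM (a level corrected for transcript length and library depth) in the vehicle cultures and 34426 to 38209 in the bilirubin cultures. Without lysozyme (*Lyz2*) the sum was 4545 to 4845 and 4331 to 4824 TPM. Its markers moved in opposite directions. *Cd68*, at 2678 to 2919 and 2268 to 2509 TPM, and *Mertk* were lower with bilirubin in every mouse. *Adgre1*, at 321 to 338 and 363 to 498 TPM, *Itgam* and *Cd14* were higher in every mouse. *Csf1r* and *Fcgr1* were higher in mouse 1 only. The 11 neutrophil markers summed to 66.01 to 78.4 TPM with vehicle and 111 to 161 TPM with bilirubin. This difference lay mostly in *S100a8*, at 52.2 to 62.9 and 87.3 to 146 TPM. The other 10 neutrophil markers summed to 13.6 to 17.8 and 11.1 to 23.7 TPM. Most of that was *Csf3r*, at 13.0 to 14.4 and 10.4 to 18.8 TPM, lower with bilirubin in all mice but mouse 1. *S100a9* was higher in every mouse, at 0 to 0.975 and 0.475 to 2.67 TPM. *Retnlg* was at 0 in all libraries and *Camp* at most 0.234 TPM. *Ly6g* was at 0 in all vehicle libraries and at most 0.146 TPM with bilirubin. The 3 monocyte markers summed to at most 2.91 TPM, and no list for another cell type exceeded 5.67 TPM, the endothelial sum. The part of these marker levels in the results was not tested. Bulk RNA cannot tell fewer cells of a type from less RNA per cell.

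The *Bcl2a1* genes are near-identical copies on chromosome 9, and how far their reads can be told apart bears on each value given for them. Their coding sequences are 516 bases long. *Bcl2a1b* and *Bcl2a1d* differ at 6 coding positions (98.84% identity), *Bcl2a1a* and *Bcl2a1d* at 7 (98.64%) and *Bcl2a1a* and *Bcl2a1b* at 11 (97.87%). Of the 12 positions that differ among the 3 genes, 7 lie in the 120 coding bases from the start codon, all in exon 1. Those stretches are shown from the GRCm39 mouse genome, 5′ to 3′ on the coding strand, with capitals at the differing positions. They lie at chr9:88839104-88839223 (plus strand) for *Bcl2a1a*, chr9:89081413-89081532 (plus strand) for *Bcl2a1b* and chr9:88613653-88613772 (minus strand) for *Bcl2a1d*.
Bcl2a1a: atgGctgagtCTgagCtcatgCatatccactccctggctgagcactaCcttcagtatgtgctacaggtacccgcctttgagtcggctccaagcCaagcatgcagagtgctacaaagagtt
Bcl2a1b: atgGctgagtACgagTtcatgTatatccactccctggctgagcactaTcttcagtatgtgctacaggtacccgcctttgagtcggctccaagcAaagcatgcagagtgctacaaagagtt
Bcl2a1d: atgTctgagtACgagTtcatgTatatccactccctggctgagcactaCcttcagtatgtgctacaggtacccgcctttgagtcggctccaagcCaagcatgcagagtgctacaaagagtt
Counted from the A of the start codon, T48C and A94C separate *Bcl2a1b* from both of the other copies in this stretch, with the base of *Bcl2a1b* written before the position. G4T marks *Bcl2a1d*, and A11C, C12T, T16C and T22C mark *Bcl2a1a*. Over whole transcripts, the share of 100-base windows found in no other copy was 69.05% for *Bcl2a1b*, 56.53% for *Bcl2a1a* and 45.03% for *Bcl2a1d*. Read pairs that lie wholly in shared windows had to be divided by the quantifier. The counts of the copies were not whole numbers (within 0.01 counts) in 8 of 8 libraries for *Bcl2a1b* and *Bcl2a1d* and in 7 for *Bcl2a1a*. *Bcl2a1b* also overlaps *Gm29094* on the same strand. The reads came from Balb/CJ mice and the reference is C57BL/6J, so strain differences in these copies can also move reads between them. A more distant copy, *Bcl2a1c*, was at 0 counts in all 8 libraries.

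Per transcript length, *Mcl1* was the highest of the 10 genes in vehicle cultures, at 348 ± 20.9 TPM (SD, n = 4). It was followed by *Bax* at 253 ± 13.3, *Bak1* at 219 ± 8.57, *Bcl2l1* at 100.5 ± 4.76 and *Bcl2a1b* at 44.4 ± 4.80 TPM. In gene totals the effectors were thus next to the leading survival gene in level, and each of these neighbours was separated over the 4 libraries. The *Bak1* total includes 35.4% from *Bak1-201* and 34.3% from *Bak1-204*. Both are annotated as targets of nonsense-mediated decay, which removes transcripts with an early stop. The *Mcl1* total includes 37.4% from *Mcl1-202*, and its first place depends on that share. *Mcl1-201* alone was at 213 to 228 TPM with vehicle, below the *Bax* total at 241 to 272 TPM. *Bid* at 32.7 ± 0.641 and *Bcl2l11* at 29.2 ± 2.61 TPM overlapped, as did *Bcl2a1d* at 6.99 ± 0.543 and *Bcl2* at 6.14 ± 0.319 TPM. *Bcl2a1a* was lowest at 0.569 ± 0.609 TPM. With bilirubin the 4 highest genes kept their places, while *Bcl2a1b*, at 28.6 ± 2.57 TPM, overlapped with *Bid* at 31.3 ± 0.950 TPM, which overlapped with *Bcl2l11* at 36.1 ± 4.96 TPM.

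With bilirubin, 1 of the 10 genes rose and 2 fell at an adjusted p below 0.05 in edgeR's quasi-likelihood test with mouse in the model. *Mcl1* rose 1.33-fold, *Bcl2l1* fell to 0.743 of its vehicle level and *Bcl2a1b* to 0.667. Over all 13722 tested genes 7.53% were called, 4.49% as higher (616 genes) and 3.04% as lower (417 genes). Scaling by library size alone gave 527 higher and 556 lower. Over the 10 genes the median change was -0.05 on the log2 scale, beside -0.002 over all tested genes. Neither effector and neither BH3-only gene passed the threshold. Values per library are given as CPM, counts corrected for depth after TMM scaling, which sets libraries to a common level by the bulk of their genes, with no correction for transcript length.

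**Figure D1:**
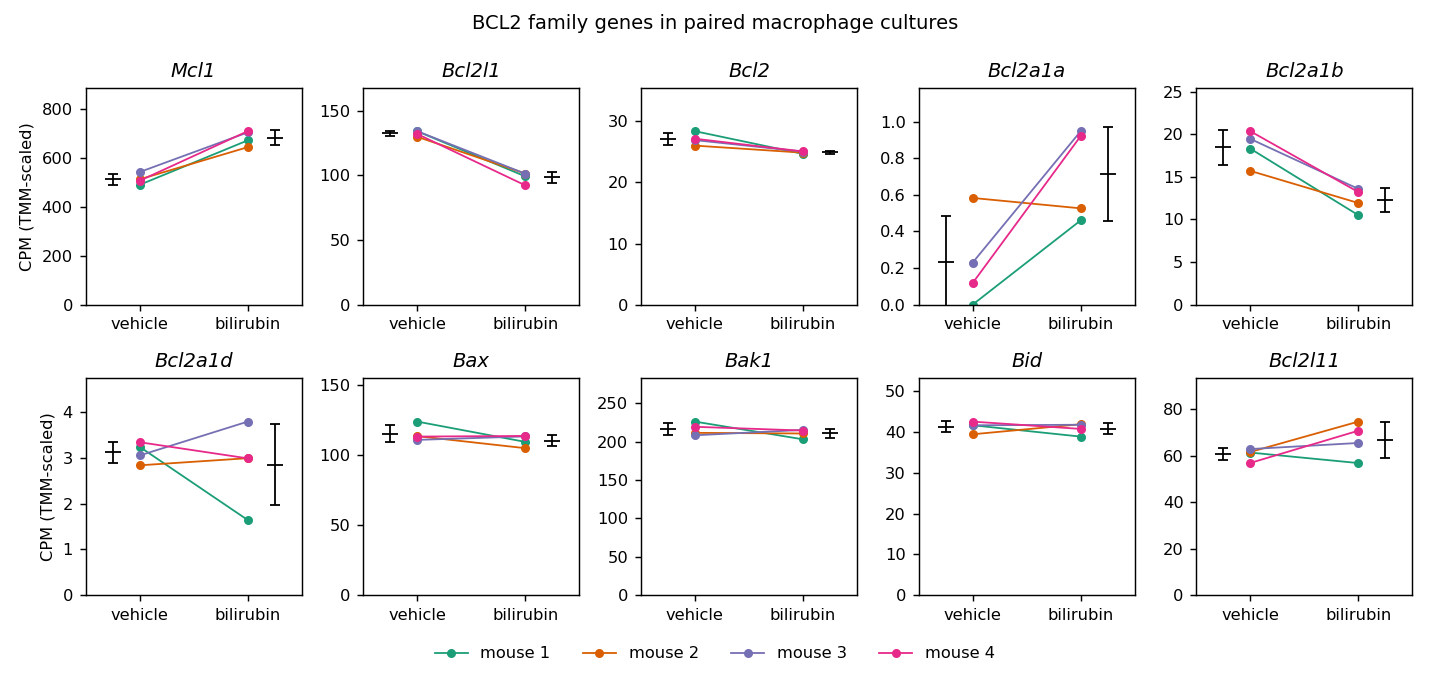
TMM-scaled CPM of the 10 genes in vehicle and bilirubin cultures, 1 panel per gene with its own axis from 0. Coloured points and lines are the 2 cultures of a mouse, and black marks are the mean ± SD over 4 mice. The lines of *Mcl1* rise and those of *Bcl2l1* and *Bcl2a1b* fall in all 4 mice, while those of *Bax*, *Bak1* and *Bid* cross.

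*Mcl1*, the short-lived guardian that binds BIM and BAK, lies at chr3:95566026-95570487 on the plus strand. It measured 489, 511, 541 and 506 CPM in the vehicle cultures of mice 1 to 4. In their bilirubin cultures it measured 671, 643, 703 and 708 CPM. Every bilirubin library was above every vehicle library, from 19308 or more counts in each. The log2 fold change was 0.41 (SE 0.0366, adjusted p = 0.000429, edgeR), with differences within mice from 0.33 to 0.49. Both annotated transcripts moved the same way. *Mcl1-201*, with 331 codons, went from 218 ± 6.96 to 278 ± 15.4 TPM, and *Mcl1-202*, with 285 codons, from 131 ± 18.1 to 183 ± 17.1 TPM, each higher in 4 of 4 mice.

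*Bcl2l1*, which encodes the survival protein BCL-XL, lies at chr2:152622582-152673655 on the minus strand. Its vehicle cultures measured 134, 129.9, 134 and 132 CPM, and its bilirubin cultures 99.2, 101, 101 and 92.3 CPM in the order of the mice. The groups did not overlap. The gene fell by 0.43 on the log2 scale (SE 0.0379, adjusted p = 0.000427, edgeR), with differences within mice from -0.52 to -0.36. The most abundant transcript, *Bcl2l1-202* with 233 codons, went from 58.4 ± 2.49 to 39.8 ± 2.29 TPM and was lower in 4 of 4 mice. *Bcl2l1-201*, with the same number of codons, went from 23.5 ± 3.22 to 19.0 ± 3.35 TPM and was lower in 3 of 4.

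*Bcl2a1b* accounted for most counts of the A1 genes. It measured 18.3, 15.7, 19.5 and 20.4 CPM with vehicle and 10.5, 11.9, 13.6 and 13.2 CPM with bilirubin. Every bilirubin library lay below every vehicle library, and the gene fell by 0.59 on the log2 scale (SE 0.0758, adjusted p = 0.0025, edgeR). *Bcl2a1d* measured 3.24, 2.83, 3.05 and 3.34 CPM with vehicle and 1.64, 2.99, 3.79 and 2.99 CPM with bilirubin. It was lower in mice 1 and 4 and higher in mice 2 and 3, with a log2 fold change of -0.17 (95% interval -0.66 to 0.32, adjusted p = 0.735, edgeR). *Bcl2a1a* had 0, 22.4, 10.4 and 5.25 counts with vehicle and 16.5, 18.7, 38.2 and 36.8 counts with bilirubin. At this depth its log2 fold change of 1.91 had an SE of 0.680 and an adjusted p of 0.152, was positive in 3 of 4 mice, and depends on how a few reads were divided. DESeq2 gave 2.27 for it with an adjusted p of 0.0255. *Bcl2a1a* passed the filter on low counts only through its bilirubin libraries, at 0.460 to 0.947 CPM beside 0 to 0.583 with vehicle. The tests after this filter are therefore no support for a rise.

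Because the division among the copies is uncertain, *Bcl2a1a*, *Bcl2a1b* and *Bcl2a1d* were also summed before testing. The sum measured 21.6, 19.2, 22.8 and 23.8 CPM with vehicle and 12.6, 15.4, 18.3 and 17.1 CPM with bilirubin. It was lower in 4 of 4 mice and the groups did not overlap. The sum fell by 0.47 on the log2 scale (SE 0.0827, adjusted p = 0.0118, edgeR). Without mouse 3 the adjusted p was 0.0526 at a log2 fold change of -0.52, and without mouse 4 it was 0.076 at -0.46. *Bcl2a1b* took 82.1% to 85.6% of these counts with vehicle and 74.1% to 83.3% with bilirubin. Among all tested genes, *Mtpap*, *Gcnt2* and *B4galt4* followed the sum most closely over the 8 libraries (Pearson r of log2 CPM 0.980, 0.974 and 0.970), and none of the 3 passed the test (adjusted p = 0.233, 0.132 and 0.14, edgeR). The genes most like *Bcl2l1* were *Zranb3*, *Runx2* and *Cxcl14* (r 0.987, 0.983 and 0.983), which fell by 0.72, 0.51 and 0.72 on the log2 scale. Both lists span the treatment groups and describe these 8 libraries only.

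**Figure D2:**
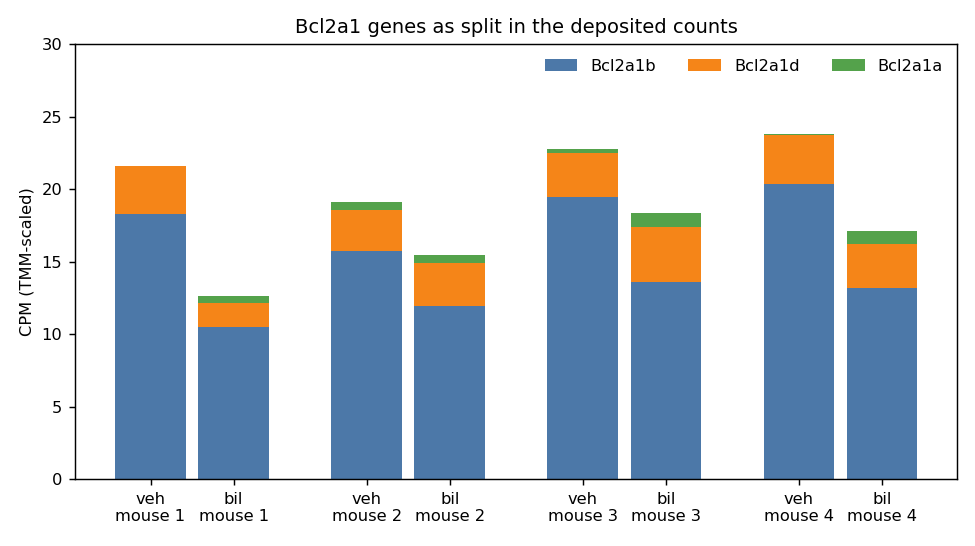
TMM-scaled CPM of the *Bcl2a1* genes in each library as stacked bars, with the vehicle (veh) and bilirubin (bil) culture of each mouse side by side. The whole bar is 19.2 to 23.8 CPM with vehicle and 12.6 to 18.3 CPM with bilirubin, and *Bcl2a1b* makes up most of every bar.

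*Bcl2*, the founding survival gene of the family, was expressed at a low level. It measured 28.4, 26.0, 26.9 and 27.1 CPM with vehicle and 24.7, 24.9, 25.03 and 25.06 CPM with bilirubin. The groups did not overlap and the gene was lower in 4 of 4 mice, but by little. The log2 fold change of -0.12 (SE 0.0491) had an unadjusted p of 0.037 and an adjusted p of 0.204 in edgeR, and its 95% interval was -0.24 to -0.01.

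The pore-forming effectors did not pass the test. *Bax* measured 124, 114, 111 and 113 CPM with vehicle and 109.6, 105, 114 and 114 CPM with bilirubin. Its ranges overlapped, and the log2 fold change was -0.06 (95% interval -0.17 to 0.04, adjusted p = 0.481, edgeR). *Bak1* measured 226, 211, 208 and 219 CPM with vehicle and 203, 211, 215 and 214 CPM with bilirubin, with a log2 fold change of -0.04 (95% interval -0.13 to 0.06, adjusted p = 0.687, edgeR). Changes as large as that of *Mcl1* lay outside both intervals. *Bax* shares its strand with the overlapping gene *Gm45808*, and its counts were not whole numbers in 5 of 8 libraries. *Bak1* overlaps *Ggnbp1* on the opposite strand, and the strand setting of the counting is not given in the sources used here, so reads of the 2 genes may not have been told apart.

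Among the BH3-only genes, *Bid*, whose product is cut by caspase 8 and links death receptors to mitochondria, measured 39.5 to 42.6 CPM with vehicle and 38.9 to 41.9 CPM with bilirubin. It overlaps *Bcl2l13* on the opposite strand, with the same limit. Its log2 fold change was -0.02 (95% interval -0.12 to 0.09, adjusted p = 0.885, edgeR). *Bcl2l11*, the gene of the death activator BIM, measured 61.3, 61.5, 62.8 and 56.8 CPM with vehicle and 56.8, 74.6, 65.4 and 70.7 CPM with bilirubin. It was higher in mice 2, 3 and 4 and lower in mouse 1. The log2 fold change was 0.14 (95% interval -0.02 to 0.30, adjusted p = 0.323, edgeR), and the size depended on the mouse left out. It was 0.21 without mouse 1 (adjusted p = 0.0171), 0.09 without mouse 2 (adjusted p = 0.66) and 0.08 without mouse 4 (adjusted p = 0.727). With an offset for transcript length it was 0.34 (adjusted p = 0.214).

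*Bcl2l11* is spliced into forms of BIM of different length, and the transcript estimates differed among them. *Bcl2l11-204*, with the 196 codons of the long form BimEL, stood at 13.6 ± 0.958 and 14.0 ± 0.924 TPM. *Bcl2l11-202*, with the 140 codons of BimL, stood at 6.58 ± 0.744 and 6.91 ± 1.57 TPM. *Bcl2l11-203*, with the 110 codons of the short form BimS, measured 9.63, 5.96, 7.31 and 5.54 TPM with vehicle and 9.63, 16.4, 10.4 and 16.6 TPM with bilirubin. It was level in mouse 1 and higher in the other three, and its share of the gene's TPM was 20.9% to 29.8% with vehicle and 30.9% to 42.9% with bilirubin. No test was run on single transcripts. The quantified model of *Bcl2l11-203* was 672 bases long against 5036 for *Bcl2l11-204*, and the bases that distinguish the forms were not counted.

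The makeup of the survival genes differed between the groups. The TPM of the 6 survival genes, over all their transcripts, summed to 507 ± 18.9 with vehicle and 577 ± 27.9 with bilirubin. This sum was higher with bilirubin in 4 of 4 mice. *Mcl1* made up 68.7% ± 2.17 of that sum with vehicle and 79.7% ± 0.860 with bilirubin. *Bcl2l1* made up 19.9% ± 1.33 and 13.0% ± 1.28, and the *Bcl2a1* genes 10.3% ± 0.934 and 6.30% ± 0.707. The ratio of *Mcl1* to *Bcl2l1* TPM was 3.05, 3.82, 3.60 and 3.43 with vehicle and 5.51, 5.68, 6.68 and 6.78 with bilirubin. The TPM of *Bax* and *Bak1*, over all their transcripts, summed to 472 ± 20.5 with vehicle and 441 ± 15.2 with bilirubin. That sum was lower with bilirubin in 4 of 4 mice, although the groups overlapped. TPM carries no TMM scaling. In TMM-scaled CPM, *Bax* was higher in 2 of 4 mice and *Bak1* in 1 of 4, and neither was called. The ratio of survival genes to *Bax* and *Bak1* was 0.964, 1.09, 1.16 and 1.09 with vehicle and 1.27, 1.28, 1.35 and 1.33 with bilirubin. These shares and both of these ratios did not overlap between the groups. The ratio of *Mcl1* to *Bcl2l11* TPM did, at 9.92 to 13.1 with vehicle and 10.2 to 15.2 with bilirubin, and it was higher in 2 of 4 mice. The summed TPM of *Bid* and *Bcl2l11* also overlapped, at 59.5 to 64.8 and 61.8 to 73.0, and was higher in 3 of 4. All of these are descriptions of RNA levels derived from the genes tested above and were not tested again.

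**Figure D3:**
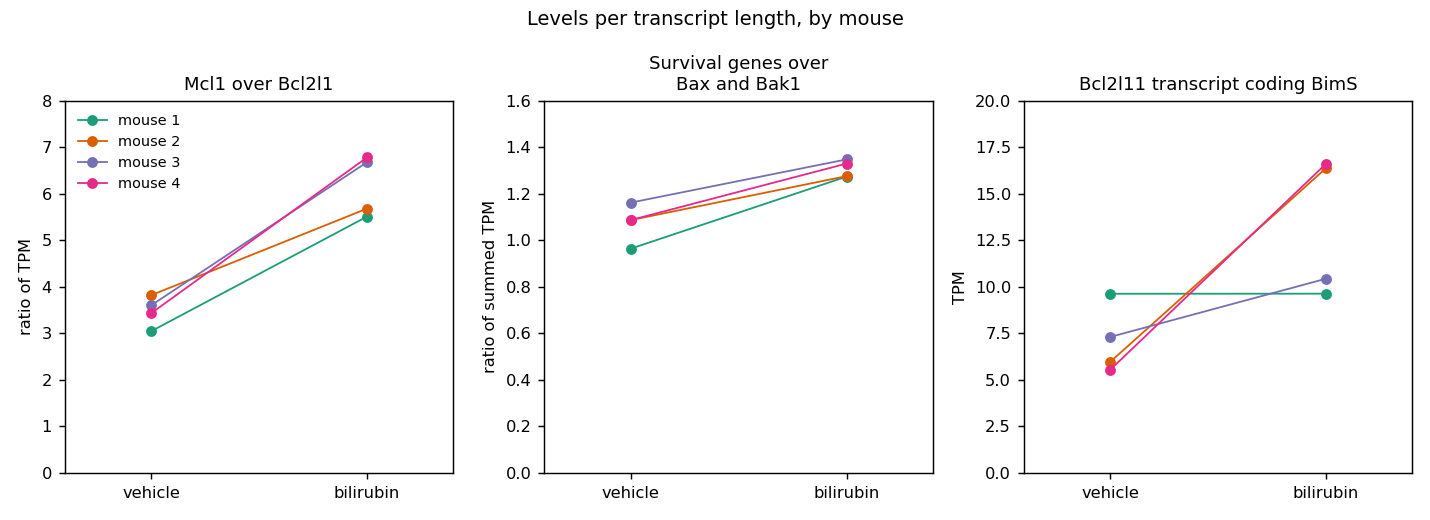
Ratio of *Mcl1* to *Bcl2l1* TPM, ratio of the summed TPM of the 6 survival genes to that of *Bax* and *Bak1*, and TPM of the *Bcl2l11* transcript that codes for BimS, in vehicle and bilirubin cultures. Each colour is a mouse and each axis starts at 0. The first ratio runs from 3.05 to 3.82 with vehicle and from 5.51 to 6.78 with bilirubin, and the BimS transcript is level in mouse 1 at 9.63 TPM.

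Of 16 other genes of the family, 10 were tested and 1 was called (10%, beside 7.53% over all tested genes). This was *Bnip3l*, a mitophagy receptor related to the BH3-only genes. It measured 75.7, 92.2, 86.9 and 82.8 CPM with vehicle and 89.2, 104.4, 94.0 and 96.7 CPM with bilirubin. It was higher in 4 of 4 mice although the groups overlapped, with a log2 fold change of 0.19 (SE 0.0368, adjusted p = 0.0183, edgeR). It was not called without mouse 2, 3 or 4 (adjusted p = 0.081, 0.0651 and 0.13), nor without mouse in the model (adjusted p = 0.159). None was called lower, also at an unadjusted p under 0.05 (0 genes) and in DESeq2 and limma-voom (0 genes each). The median over the 10 was -0.06 on the log2 scale. The 6 genes not tested, *Bcl2l10*, *Bcl2a1c*, *Bok*, *Hrk*, *Bcl2l14* and *Bcl2l15*, had at most 21 counts in a library.

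The machinery downstream of mitochondria showed 1 call among 22 caspase, apoptosome and inhibitor-of-apoptosis genes (4.55%, beside 7.53% over all tested genes). *Birc3*, which encodes the ubiquitin ligase cIAP2, measured 22.4, 23.3, 21.4 and 23.7 CPM with vehicle and 37.6, 35.4, 41.3 and 39.1 CPM with bilirubin. The groups did not overlap, and the log2 fold change was 0.76 (SE 0.0617, adjusted p = 0.000275, edgeR). With an offset for transcript length it was 0.49 (adjusted p = 0.0108). The median of the 22 genes was 0.05 on the log2 scale, and 4 of them, all higher, had an unadjusted p under 0.05. None was called lower in edgeR, DESeq2 or limma-voom (0 genes), or at an unadjusted p under 0.05 (0 genes).

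Genes of TNF and death receptors, their ligands, adaptors and effectors formed the death receptor list, with 15 tested. Of these, 5 were called (33.3%), all higher, beside 4.49% called higher over all tested genes. *Traf1*, an adaptor of TNF receptors, had the largest change of them, from 1.90 ± 0.193 to 7.38 ± 2.22 CPM (log2 fold change 1.92, SE 0.175, adjusted p = 0.000513, edgeR). The cytokine gene *Tnf* went from 37.2 ± 3.49 to 64.6 ± 10.9 CPM (log2 fold change 0.79), and *Tnfrsf1b*, the gene of TNF receptor 2, from 359 ± 23.9 to 477 ± 29.7 CPM (0.41). The death receptor gene *Fas* went from 3.04 ± 0.169 to 5.38 ± 0.825 CPM (0.82), and *Mlkl*, the executioner of necroptosis, from 17.7 ± 0.806 to 23.0 ± 1.74 CPM (0.38). Each was higher in 4 of 4 mice without overlap. Without mouse 3, *Fas* (adjusted p = 0.0931) and *Mlkl* (adjusted p = 0.0508) were not called, and without mouse 4 *Fas* was not (adjusted p = 0.0627). The receptor genes *Tnfrsf1a* (log2 fold change 0.02, adjusted p = 0.752, edgeR) and *Tnfrsf10b* (-0.25, adjusted p = 0.432, edgeR) were not called. The median over the 15 genes was 0.11 on the log2 scale. None was called lower in edgeR, DESeq2 or limma-voom (0 genes), or at an unadjusted p under 0.05 (0 genes). *Fasl* had at most 1 count in a library and was not tested.

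Of 24 regulators of the family, 3 were called (12.5%), all higher, beside 4.49% called higher over all tested genes. *Relb* and *Nfkb2* encode the subunits of the noncanonical NFκB pathway. *Relb* measured 14.6, 14.97, 16.3 and 16.5 CPM with vehicle and 32.6, 24.4, 33.5 and 35.3 CPM with bilirubin (log2 fold change 1.00, SE 0.0777, adjusted p = 0.000221, edgeR). *Nfkb2* measured 42.3, 40.3, 46.6 and 43.3 CPM with vehicle and 63.6, 60.8, 72.8 and 70.1 CPM with bilirubin (log2 fold change 0.63, SE 0.0391, adjusted p = 7.58e-05, edgeR). *Pim1*, a survival kinase that phosphorylates BAD, had a log2 fold change of 0.19 with an adjusted p of 0.0435, which lay between 0.0127 and 0.231 over the alternatives, and it was called in 5 of 12 of them. The median over the 24 genes was 0.02 on the log2 scale. None was called lower in edgeR, DESeq2 or limma-voom (0 genes), or at an unadjusted p under 0.05 (0 genes).

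**Figure D4:**
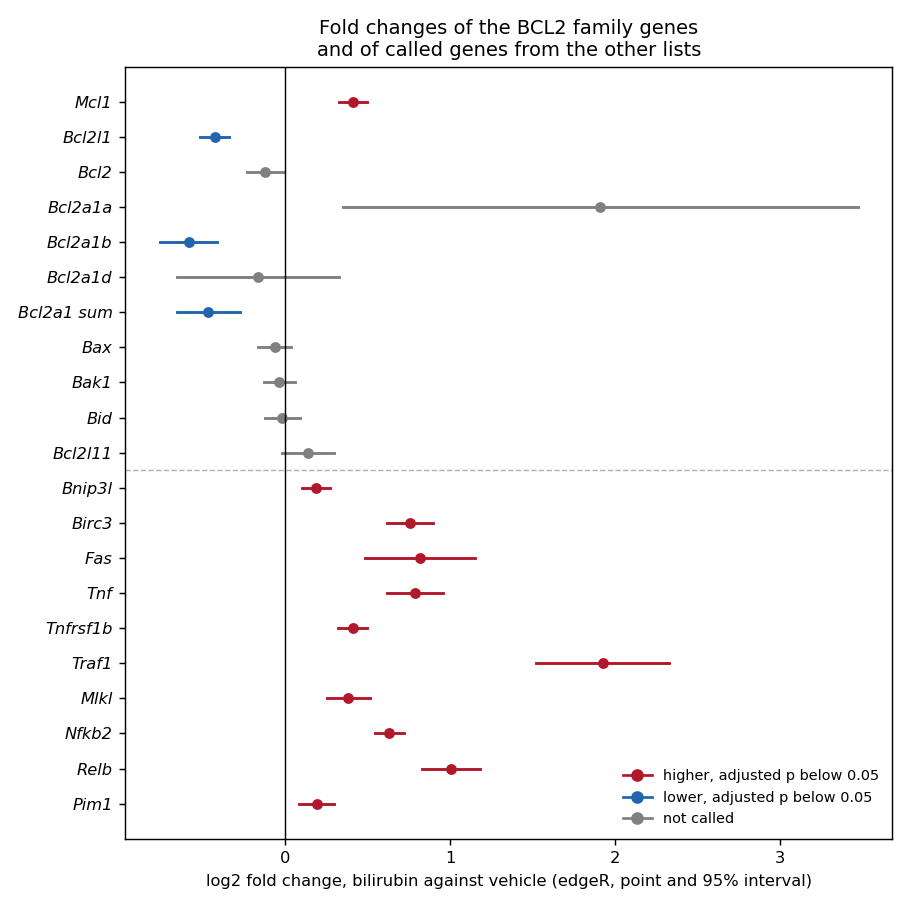
Log2 fold change with its 95% interval (edgeR) for the 10 genes and the summed *Bcl2a1* genes above the dashed line, and for the called genes of the other lists below it. Red is higher and blue is lower at an adjusted p below 0.05, and grey did not pass. *Mcl1* stands at 0.41, *Bcl2l1* at -0.43 and the *Bcl2a1* sum at -0.47, and the called genes of the other lists are all to the right of 0.

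Promoters of the 10 genes were searched for the NFκB consensus on both strands, because that pathway's genes were among those called. RefSeq start sites gave 13 promoters for the 10 genes, each from 250 bases before to 50 bases after the start site. A match was found in 1 of them, a promoter of *Bcl2l1*, a gene that fell. Over all 32851 promoters the share with a match was 4.51%. The sequence is from RefSeq and was placed by an exact match at chr2:152672588-152672887 (GRCm39, minus strand), with the match, which begins at position -242 relative to the start site, in capitals.
Bcl2l1: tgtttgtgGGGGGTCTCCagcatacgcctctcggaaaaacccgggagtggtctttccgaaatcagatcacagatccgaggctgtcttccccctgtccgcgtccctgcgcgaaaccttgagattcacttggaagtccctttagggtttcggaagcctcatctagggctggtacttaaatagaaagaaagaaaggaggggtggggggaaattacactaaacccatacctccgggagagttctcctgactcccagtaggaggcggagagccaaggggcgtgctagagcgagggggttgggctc
The match describes letters in this window and not a bound site.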

How the data were processed

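RNA was isolated with TRIzol, and poly-A selected libraries were sequenced. Per the labels and the methods of the study, the authors trimmed reads with Trim Galore 0.6.7 and cutadapt 3.4, aligned them to GRCm39 with STAR 2.7.9a, quantified transcripts with Salmon 1.10.1 and summed them per gene with tximport. The strand setting is not given in the sources used here. The authors deposited estimated counts per gene, with no scaling, as well as the TPM of 142434 transcripts in every library. The deposited estimated counts of the 8 libraries were used as they stood, rounded to whole numbers for the tests. The transcript to gene table came with the files.

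Counts were tested with edgeR 4.0.16 in R 4.3.3, using TMM scaling, the filterByExpr filter (a minimum count of 10 together with a minimum of 15 summed over libraries), the quasi-likelihood test with mouse and treatment as terms, and Benjamini-Hochberg adjustment over 13722 genes at 0.05. Fold changes within mice used log2 CPM with a prior count of 2. The labels number the cultures, and cultures of the same number were taken as from the same mouse, per the methods of the study. The deviations of the cultures of a mouse from their group means correlated at 0.108, 0.134, 0.108 and -0.005 across genes. Cultures of different mice gave a mean of -0.028 and at most 0.075. No 2 libraries of a group were alike within sampling noise (chi-square per degree of freedom 6.08 or more). The cultures came from separate animals. The test was checked on simulated data.

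Named were the 10 genes, *Bcl2a1c*, the called genes of each other list (6 at most), and the 3 genes most correlated with the *Bcl2a1* sum and with the gene of smallest adjusted p. The genes and lists were chosen with earlier results of these data known. Transcript names, types, codons and positions are from a later annotation (GENCODE vM39, GRCm39) than the quantification used. Promoters are from RefSeq (GRCm38.p6), placed in GRCm39 by exact match. The NFκB consensus was searched on both strands. The settings varied were a model with no mouse term, DESeq2 1.42.0, limma-voom (limma 3.58.1), DESeq2 size factors, library size alone, no filter, CPM above 1 in 4 libraries, an offset for transcript length, and leaving out each mouse.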

Additional observations from a re-analysis of the deposited data

How the results depend on the processing

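The calls of *Mcl1* as higher and of *Bcl2l1* and *Bcl2a1b* as lower held under all 12 alternatives. Their log2 fold changes ranged from 0.39 to 0.44, from -0.46 to -0.38 and from -0.65 to -0.52. None of the alternatives changed how reads were divided among the *Bcl2a1* copies, so they could not test the *Bcl2a1b* call against that. The summed *Bcl2a1* genes were called in 10 of the 12, and not without mouse 3 or mouse 4 (adjusted p = 0.0526 and 0.076, edgeR). Of 119 fold changes of the 10 genes under the alternatives, 113 kept their direction and their side of the threshold. The 3 that turned direction did so without mouse 1, and none of them was called. Leaving out each mouse in turn gave -0.342 to 0.0758 for *Bcl2a1d*, -0.0662 to 7e-04 for *Bak1* and -0.053 to 0.0063 for *Bid*. *Bcl2a1a* was called with DESeq2 and without a filter, which gave 2 of the 10 genes as higher in each, and *Bcl2l11* without mouse 1. CPM above 1 in 4 libraries left *Bcl2a1a* untested.

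Leaving out each mouse gave 1 to 2 of the 10 genes as higher and a log2 fold change of -0.52 to -0.37 for the summed *Bcl2a1* genes. It gave 0 to 2 other family genes, 3 to 5 genes of the death receptor list and 2 to 5 regulators as higher. Over all genes it gave 377 to 1910 calls, the latter without mouse 1. The model without the replicate block gave 686 calls over all genes and 0 other family genes, took away *Bnip3l* and *Pim1*, and changed no other call of a named gene. The length offset gave 579 calls and 0 other family genes. Without a filter there were 1692 calls among 26021 genes, 2 other family genes and 6 regulators, with *Trp53*, *Mdm2* and *Nfkb1* added, and DESeq2 gave 2 other family genes. The gene added in both was *Bnip3*. The cause of these differences was not tested. Depth limits *Bcl2a1a*, with at most 38.2 counts in a library, and the split among the *Bcl2a1* copies limits each of them beyond counting error.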

Other observations

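Transcript estimates differed in how far they stood for full-length protein. Of the *Bak1* TPM in vehicle cultures, *Bak1-201* held 35.4% and *Bak1-204* held 34.3%, both annotated as targets of nonsense-mediated decay, the pathway that removes transcripts with an early stop. *Bak1-203*, annotated as protein-coding with 146 codons, held 26.2%, and *Bak1-202*, with 209 codons, held 4.09%. With bilirubin the shares were 33.9%, 35.0%, 26.4% and 4.65%. *Bax-201*, with 192 codons, held 80.7% of the *Bax* TPM with vehicle and 82.3% with bilirubin. *Bid-201*, with 195 codons, held 95.2% and 94.0% of the *Bid* TPM. *Bcl2-201*, with 236 codons, held 96.8% and 98.2% of the *Bcl2* TPM. *Mcl1-201*, with 331 codons, held 62.6% and 60.35% of the *Mcl1* TPM. *Mcl1-202*, with 285 codons, held the other 37.4% and 39.65%. These types come from a later annotation than the one quantified, and the shares are means over 4 mice with no test.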
